A study of Mus musculus with 2 samples.

Results

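Basophils from B16F10-OVA tumours were described from 2 droplet single-cell RNA libraries of CD45+ leukocytes, 1 from mice injected with UDSP-Hep and 1 from mice injected with PBS. A barcode counted as a basophil when at least 3 of 6 genes, Mcpt8, Cd200r3, Ms4a2, Gata2, Prss34 and Fcer1a, had a UMI and Cd3e, Cd79a and C1qa had none. A UMI is a unique molecular identifier, which marks 1 captured RNA molecule. Barcodes with fewer than 200 genes or 500 UMIs, or with 10% or more of UMIs from mitochondrial genes, were set aside first. By this rule 139 of 14809 kept cells were basophils, 50 from the UDSP-Hep library and 89 from the PBS library. B16F10-OVA is a mouse melanoma line that carries ovalbumin as a model antigen, and all mice bore it under the skin. UDSP-Hep, an agent the labels do not explain, or PBS, a saline buffer, was injected on days 10, 12, 14 and 16, and tumours were taken on day 19. The labels give no strain, sex or age of the mice. Each library pooled 3 tumours, so treatment, library and mice cannot be told apart, no difference could be tested, and every interval covers counting error only.

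Basophils are rare circulating granulocytes that arise in the bone marrow. IgE held on their high-affinity receptor triggers them when antigen cross-links it, and they then release histamine and proteases from granules and secrete IL-4 and other cytokines. They depend on the transcription factor GATA2, and IL-3 and TSLP expand and activate them. In mice the protease mMCP-8, made from Mcpt8, is the common marker that parts them from mast cells.

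The library from UDSP-Hep tumours had 7675 kept cells with a median of 5793 UMIs, and the library from PBS tumours 7134 kept cells with a median of 8115.5. Basophils themselves were sequenced to nearly equal depth, with medians of 4905.5 UMIs and 1464 genes in UDSP-Hep and 4959 UMIs and 1377 genes in PBS. Summed over cells, this gave 290590 and 454416 UMIs. A single cell was therefore about as well read in either library, but the sums are small, and counting error is wide for genes with few UMIs. Among all barcodes 25 sequences occurred in both libraries, of which 0 of the UDSP-Hep and 1 of the PBS copies were basophils.

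The rule genes are given as a description, since they chose the cells. Gata2 had a UMI in 100% of UDSP-Hep and 97.8% of PBS basophils, Cd200r3 in 96% and 92.1%, and Mcpt8 in 92% and 93.3%. The IgE receptor subunits were sparser. Ms4a2, the beta chain, had a UMI in 72% of UDSP-Hep and 60.7% of PBS basophils, and Fcer1a, the IgE-binding alpha chain, in 50% and 44.9%. Prss34, the protease mMCP-11, was the least often seen, in 14% and 14.6%. At the edge of the rule, 13 UDSP-Hep and 31 PBS basophils held exactly 3 of the 6 genes, and 7 and 16 cells with 2 of them were left out. A further 10 cells in each library had 3 or more of the genes beside a UMI of Cd3e, Cd79a or C1qa and were left out too.

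The label was checked against genes outside the rule and against markers of other cell types. All 10 mast cell markers, among them Cma1, Mcpt4, Tpsb2 and Kit, had 0 UMIs in the basophils of both libraries, and so did all 5 erythroid genes. Cpa3, a carboxypeptidase of mast cells and basophils, stood at 317 CPM (counts scaled to a common total, over the summed UMIs of the cells named) in UDSP-Hep and 209 CPM in PBS basophils, against 0.661 and 0.217 CPM in all other cells. In both libraries the summed markers of other leukocytes stood below their level in other cells, except those of eosinophils. For T cell, B cell and macrophage markers this was partly set in advance, since the rule asks for 0 UMIs of Cd3e, Cd79a and C1qa. The 8 eosinophil markers summed to 89.5 CPM in UDSP-Hep and 57.2 CPM in PBS basophils, against 51.6 and 40.8 CPM in other cells. They had UMIs in 11 of 50 and 19 of 89 basophils. The 12 macrophage and monocyte markers summed to 1538 CPM in UDSP-Hep and 794 CPM in PBS basophils, against 8199 and 8217 CPM in other cells. The 11 neutrophil markers summed to 299 and 235 CPM, against 1911 and 319 CPM in other cells. Of the basophil sums Cxcr2 alone made 220 and 211 CPM, above its 43.4 and 6.94 CPM in other cells. The 11 T cell markers summed to 92.9 and 33.0 CPM, against 1070.7 and 1035.5 CPM in other cells. The 8 NK cell markers summed to 65.4 and 583 CPM, against 2309 and 971 CPM. Possible doublets were cells with 2 or more UMIs of T, B, NK or dendritic markers or of C1qb, C1qc, Adgre1 and Ms4a7. Cells over 3 times the median depth were added, which gave 13 of 50 in UDSP-Hep and 13 of 89 in PBS. The other macrophage and monocyte markers, and those of neutrophils and eosinophils, were not used. Mixtures with such cells can therefore remain when possible doublets are left out. Several results are given both with and without them.

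Promoter sequences are shown for 4 genes that mark these cells, because GATA2 is the lineage's regulator. All 4 hold the motif marked below, and the rule genes Mcpt8 and Gata2, which lack it, are not shown. The sequences are the 250 bases before the start site, from RefSeq on GRCm38.p6, at chr19:11623720-11623969 (minus strand), chr1:173227230-173227479 (minus), chr16:44943428-44943677 (plus) and chr3:20242182-20242431 (minus). Capitals mark AGATAA or, for the other strand, TTATCT, a core that GATA factors recognise.
Ms4a2: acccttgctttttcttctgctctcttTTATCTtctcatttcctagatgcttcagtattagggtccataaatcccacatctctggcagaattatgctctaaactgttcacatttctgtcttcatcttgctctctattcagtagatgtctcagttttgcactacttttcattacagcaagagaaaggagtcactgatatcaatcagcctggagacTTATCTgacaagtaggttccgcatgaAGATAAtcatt
Fcer1a: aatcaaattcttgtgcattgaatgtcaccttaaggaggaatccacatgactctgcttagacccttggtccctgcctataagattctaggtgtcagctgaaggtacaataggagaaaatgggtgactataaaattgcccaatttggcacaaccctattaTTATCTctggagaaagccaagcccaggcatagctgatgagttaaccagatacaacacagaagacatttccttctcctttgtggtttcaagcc
Cd200r3: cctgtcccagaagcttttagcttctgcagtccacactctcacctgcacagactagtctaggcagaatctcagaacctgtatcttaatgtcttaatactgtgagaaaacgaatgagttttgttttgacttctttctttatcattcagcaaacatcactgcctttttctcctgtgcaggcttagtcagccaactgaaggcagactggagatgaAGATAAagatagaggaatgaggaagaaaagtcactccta
Cpa3: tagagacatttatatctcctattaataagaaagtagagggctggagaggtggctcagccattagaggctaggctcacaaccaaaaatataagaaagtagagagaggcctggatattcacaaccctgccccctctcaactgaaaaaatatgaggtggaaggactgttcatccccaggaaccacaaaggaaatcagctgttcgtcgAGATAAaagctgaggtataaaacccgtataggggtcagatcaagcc
Of the 6 rule genes, all with a promoter window, 4 held the motif, as did 3 of the 14 with a window among the 20 genes ranked highest against other cells. Over all genes with a window the share was 11.4%, 3090 of 27025, and over all windows 9.99%, 3281 of 32851. Ms4a2 held 3 copies. A match is only a stretch of letters, and binding was not measured.

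**Figure D1:**
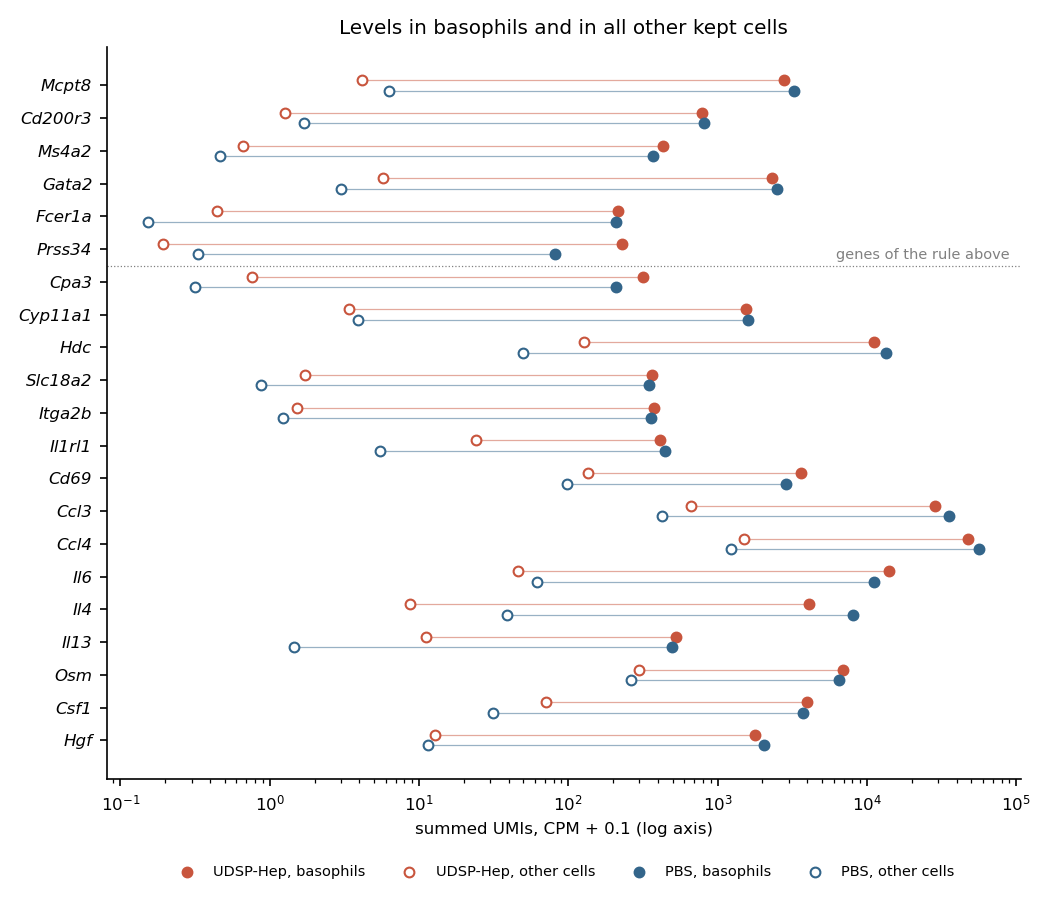
Level of each gene in CPM plus 0.1 on a log axis, in basophils (filled) and all other kept cells (open), with UDSP-Hep above PBS for each gene. Genes above the dotted line chose the cells. Filled points of both libraries lie far to the right of open ones. Below the dotted line they run from Cpa3 at 317 and 209 CPM up to Ccl4 at 47579 and 56393 CPM.

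Basophils made up 0.651% of the UDSP-Hep library (50 of 7675 cells, exact binomial 95% interval 0.484 to 0.858%) and 1.25% of the PBS library (89 of 7134, 1.00 to 1.53%). The ratio of shares was 0.522 (Katz interval 0.370 to 0.737). The rest of the gate shifted as well. Neutrophils by a marker rule were 9.45% of UDSP-Hep and 0.715% of PBS cells, and NK cells 16.9% and 5.80%. When neutrophils, eosinophils and NK cells were not counted in the total, the basophil ratio was 0.666 (0.472 to 0.940). How many basophils each tumour held was not measured, since the libraries give shares of sorted CD45+ cells.

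Cytokines, chemokines and growth factors made 8 of the 20 genes that stood furthest above other leukocytes once the 6 rule genes were set aside. Of 1857 genes with at least 50 UMIs over both libraries' basophils, 17.2% stood at least 2 times as high as in other cells in both libraries. This ranking describes the cells and tests nothing, because the cells were chosen by expression. In order, the 20 were Il4, Il6, Cyp11a1, Hdc, Hgf, Egr3, Csf1, Ccl3, Itga2b, Slc18a2, Ccl4, Car8, Klf5, Aqp9, Il13, Cd69, Alox5, Osm, Plk3 and Cpa3. The smaller of the libraries' ratios was 164 for Il4, 154 for Il6 and 81.6 for Hdc, with 10 CPM added to both sides. Between UDSP-Hep and PBS basophils, 78 of the 1857 genes were at least 2 times higher (4.2%) and 37 at least 2 times lower (1.99%), and these shares are the background for every list below. None of the 19 identity genes outside the rule with enough UMIs was past that fold, with a median log2 ratio of -0.10 against 0.01 over all 1857 genes.

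Interleukin 4 is the cytokine through which basophils are best known to steer type 2 immunity. Il4 (ENSMUSG00000000869, chromosome 11 from 53602982 to 53618669, minus strand, GRCm38) had 1185 UMIs in 50 UDSP-Hep basophils and 3644 in 89 PBS basophils, or 4078 and 8019 CPM. The ratio was 0.509 (0.476 to 0.543), just short of the 2-fold limit, and 0.544 without possible doublets. Basophils held 68.5% of all Il4 UMIs in the UDSP-Hep library and 55.9% in the PBS library. Most of the remainder lay in cells that had at least 1 of the 6 genes but did not meet the rule, which held 19.2% and 40.9%.

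Il4 was uneven among basophils of both libraries. After each cell was thinned to 2000 UMIs, the median was 1.5 UMIs with a highest cell of 77 in UDSP-Hep (46 cells deep enough) and 3 UMIs with a highest cell of 155 in PBS (89 cells). Of these, 16 of 46 UDSP-Hep and 26 of 89 PBS basophils had 10 or more. The shares of cells at 0 were 14 of 46 and 25 of 89. An NK cell should lack Il4. Of NK cells by the marker rule with no UMI of the 6 rule genes, 0.489% in UDSP-Hep and 0.253% in PBS had an Il4 UMI. Among basophils at the same thinned depth the shares were 69.6% and 71.9%. That choice of NK cells left out those with a rule gene, which could carry basophil RNA, so the low shares are partly set by it. The level also went with the rule itself: with exactly 3 of the 6 genes Il4 stood at 9769 CPM in UDSP-Hep and 18272 CPM in PBS, with 4 at 3273 and 7580 CPM, with 5 at 2686 and 1013 CPM, and with 6 at 888 and 292 CPM. So UDSP-Hep was the lower library among cells with 3 or 4 of the genes and the higher one among cells with 5 or 6, and PBS cells with 2 genes, outside the rule, held 25173 CPM against 798 CPM in UDSP-Hep. The part of these cells in the difference was not tested.

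Interleukin 13, the sister cytokine whose gene lies next to Il4 on chromosome 11, was near equality. Il13 stood at 527 CPM in UDSP-Hep and 495 CPM in PBS basophils (ratio 1.06, 0.860 to 1.31), with UMIs in 22 of 50 and 43 of 89 cells. Basophils held 17.9% of the Il13 UMIs of the UDSP-Hep library and 69.2% of those of the PBS library, since other cells stood at 11.04 CPM in UDSP-Hep and 1.36 CPM in PBS. Interleukin 6, an inflammatory cytokine, stood at 14109 and 11115 CPM (1.27, 1.22 to 1.32), and basophils held 58.4% and 52.5% of its UMIs. Per thinned cell, Il6 ran from 0 through a median of 25.5 to 121 UMIs in UDSP-Hep and from 0 through 17 to 88 in PBS, so the libraries overlapped over most of their range. Tnf stood at 585 and 517 CPM. Il1b stood at 2344 and 2293 CPM, but neutrophils and monocytes also make it, and other cells stood at 1929.5 and 790.3 CPM. The remaining 7 of the 12 cytokines listed, Il3, Il5, Il9, Il10, Il25, Il31 and Tslp, had 0 UMIs in all 139 cells, and none of the 5 measured ones was past 2-fold.

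**Figure D2:**
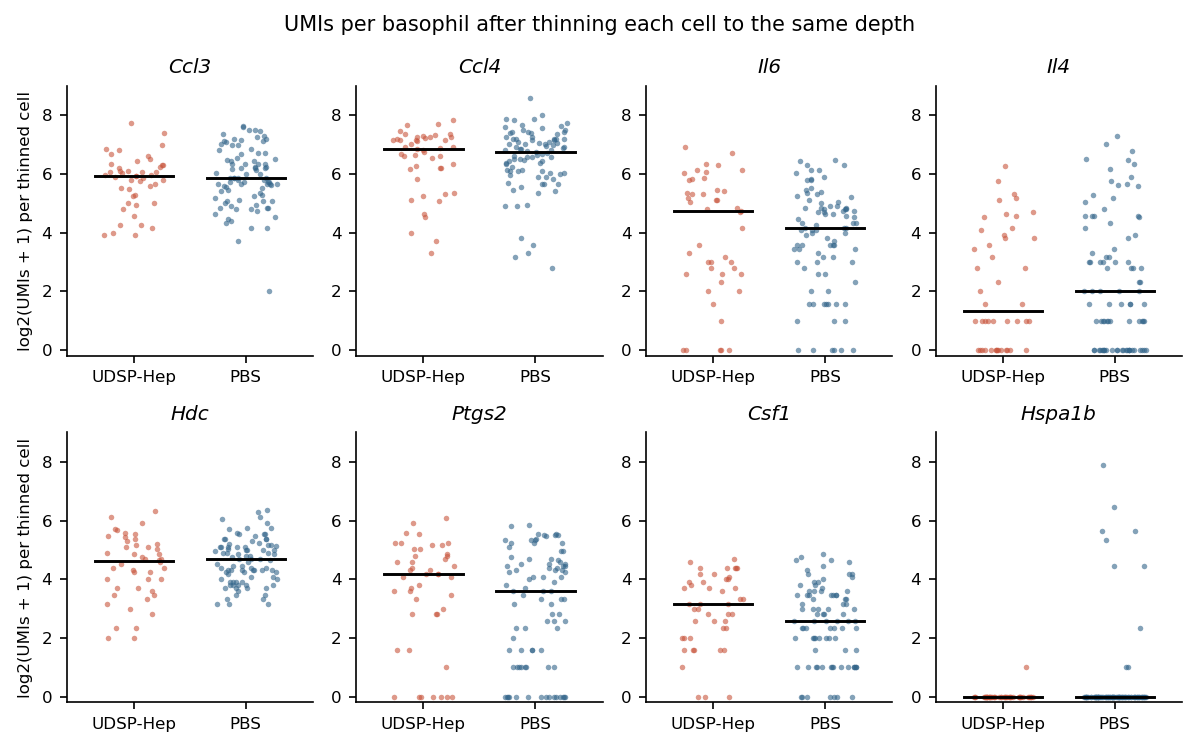
UMIs per basophil on a log2(UMIs + 1) axis after each cell was thinned to 2000 UMIs, with UDSP-Hep (46 cells) left of PBS (89 cells). Each point is 1 cell and the bar is the median; Ccl3, Ccl4 and Hdc are in every cell, Il4 spreads from 0 to 77 and 155 UMIs, and high Hspa1b is seen in a few PBS cells.

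Of the 23 lists, chemokines had the highest summed level in basophils. Ccl3 and Ccl4, which encode the chemokines MIP-1 alpha and MIP-1 beta, together made 7.61% of all basophil UMIs in UDSP-Hep and 9.21% in PBS. Ccl3 stood at 28511 and 35683 CPM (0.799, 0.778 to 0.820) and Ccl4 at 47579 and 56393 CPM (0.844, 0.826 to 0.861). Both were read in every thinned cell, with medians of 60 and 57 UMIs for Ccl3 and 113.5 and 107 for Ccl4. The per-cell medians are thus slightly higher in UDSP-Hep while the summed levels are lower. In other cells the sum of both genes had a ratio above 1, at 1.31 (1.30 to 1.32). Basophils held 16.4% of the Ccl3 UMIs of the UDSP-Hep library and 34.1% of those of the PBS library. The C-C chemokines Ccl6 and Ccl9 stood at 7557 and 9221 CPM and at 4728 and 5224 CPM. Cxcl2, a neutrophil attractant, stood at 2949 and 5154 CPM (0.572, 0.528 to 0.619) with UMIs in 26 of 50 and 38 of 89 cells. Of 15 chemokines listed, 7 had enough UMIs, 2 were past the fold and higher, Ccl2 and Ccl7, and 0 were lower. Those monocyte chemoattractants had 240 UMIs in UDSP-Hep and 26 in PBS, and a single cell held 215 of the 240. Without possible doublets the ratio was 4.52 for Ccl2 and 1.26 for Ccl7, with too few UMIs for a call.

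Histamine is made by histidine decarboxylase, the product of Hdc, and packed by the transporter VMAT2, the product of Slc18a2. Hdc stood at 11205 CPM in UDSP-Hep and 13514 CPM in PBS basophils (0.829, 0.794 to 0.865) and Slc18a2 at 365 and 348 CPM (1.05, 0.812 to 1.35). Hdc was read in every basophil, with thinned values from 3 through 23.5 to 80 UMIs in UDSP-Hep and from 8 through 25 to 81 in PBS. Its share of the library's UMIs differed more than its level: basophils held 28.7% of Hdc UMIs in UDSP-Hep and 62.5% in PBS, and other cells stood at 127 and 49.98 CPM. Serglycin, the granule proteoglycan made from Srgn, stood at 6786 and 7572 CPM, and Gzmb, a cytotoxic granzyme, at 2171 and 2165 CPM. Cpa3 was at a ratio of 1.51 (1.12 to 2.04), and 1.95 without possible doublets. Of the 12 granule genes with enough UMIs 1 was past 2-fold, the lysosomal membrane gene Lamp1, at 179 and 59.4 CPM (3.01, 1.86 to 4.99). Without possible doublets Lamp1 stood at 2.84 with too few UMIs for a call.

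The measured transcripts of the IgE receptor and its proximal signalling were mostly within 2-fold between the libraries. The shared gamma chain Fcer1g stood at 1848 CPM in UDSP-Hep and 2335 CPM in PBS (0.792, 0.712 to 0.879), and the adaptor Lat2 at 795 and 988 CPM. Of 11 measured members of this pathway 1 was past 2-fold, the kinase Syk at 169 and 68.2 CPM (2.47, 1.54 to 4.01), which fell short at 1.83 without possible doublets. The ubiquitin ligase Cbl, which ends receptor signalling, had 31 and 7 UMIs (ratio 6.93, 2.99 to 18.6), too few for a call. Receptors for basophil-activating cytokines were present in both libraries. Csf2rb, the beta chain shared by the receptors of IL-3, IL-5 and GM-CSF, stood at 1204 and 1452 CPM, its close mouse copy Csf2rb2, specific to IL-3, at 461 and 673 CPM, and the IL-3 alpha chain Il3ra at 89.5 and 94.6 CPM. Il1rl1, the receptor of IL-33, stood at 413 and 447 CPM (0.924, 0.731 to 1.16). Crlf2, the TSLP receptor, had the lowest ratio of the cytokine receptors, at 82.6 and 158 CPM (0.521, 0.314 to 0.838). Ifngr1 was the 1 of 10 past 2-fold, at 120 and 55.0 CPM, and stood at a ratio of 1.08 without possible doublets.

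Among growth factors, Csf1, which sustains macrophages, stood at 3947 CPM in UDSP-Hep and 3715 CPM in PBS (1.06, 0.985 to 1.15), and Osm, an IL-6-family cytokine, at 6951 and 6551 CPM. Hgf, the hepatocyte growth factor, stood at 1772 and 2040 CPM. All 3 were nearly level between the libraries. Areg, the EGF-family factor amphiregulin, was rarer and patchy, at 736 and 387 CPM (1.90, 1.55 to 2.33), in 7 of 50 and 13 of 89 cells, with 43.9% and 33.0% of its UMIs in a single cell. Without possible doublets Areg and Lif, another IL-6-family cytokine, passed 2-fold at 2.39 and 2.43. In the eicosanoid pathway Ptgs2, the inducible cyclooxygenase, stood at 8524 and 8208 CPM (1.04, 0.987 to 1.09), Alox5, the first enzyme of leukotriene synthesis, at 341 and 310 CPM, and its helper Alox5ap at 1569 and 2286 CPM (0.686, 0.613 to 0.767). Ltc4s, Ptgs1 and Hpgds had 0 UMIs, and none of the 5 measured genes was past 2-fold. Cyp11a1, which starts steroid synthesis from cholesterol, stood at 1562 and 1596 CPM, and 68.5% and 72.1% of its UMIs in each library lay in basophils.

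**Figure D3:**
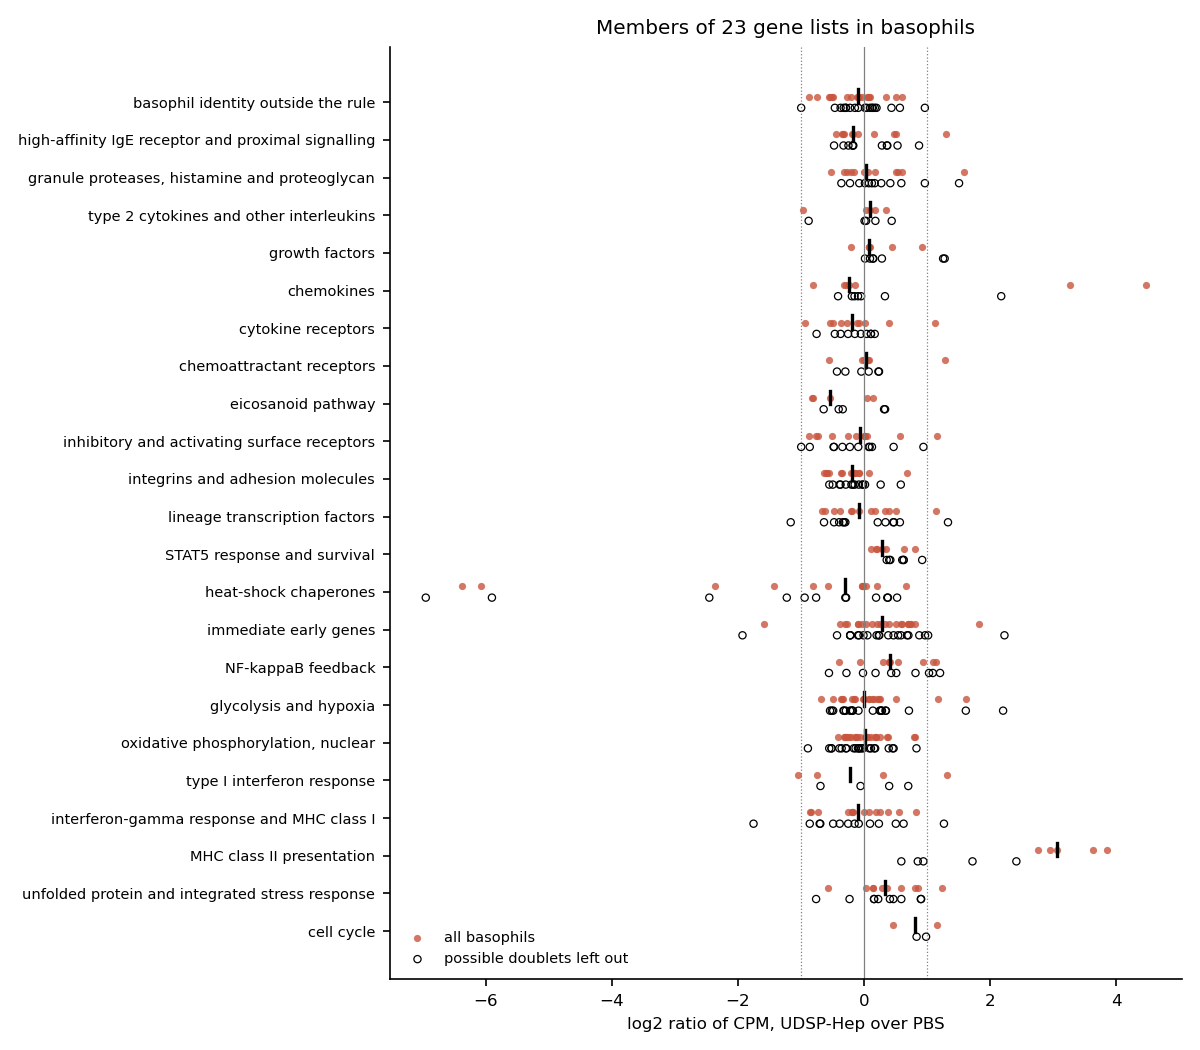
Log2 ratio of CPM, UDSP-Hep over PBS, for the members of 23 gene lists with at least 50 UMIs; filled points are all basophils with the median as a bar, open points leave possible doublets out, and dotted lines mark 2-fold. The medians of the identity, granule and integrin lists lie near 0, while Lamp1 of the granule list lies above 1. The heat-shock list has 4 members below -1, and Hspa1a, Hspa1b and Hspe1 among them reached 50 UMIs only through PBS. The 5 MHC class II members shown, which reached 50 UMIs only through UDSP-Hep, lie above 1, and 3 of them below 1 once possible doublets are left out.

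Transcripts of cell activation were high in both libraries, and a few of them differed. Immediate early genes are switched on within minutes of a stimulus. Of 22 measured, 1 was higher and 1 lower, shares near the background of all genes, with a median log2 ratio of 0.29. The higher one, the AP-1 subunit Fosb, stood at 2344 CPM in UDSP-Hep and 662 CPM in PBS (3.54, 3.08 to 4.07; 4.68 without possible doublets), with UMIs in 35 of 50 and 44 of 89 cells. The orphan receptor gene Nr4a2 ran the other way, at 255 and 768 CPM (0.332, 0.254 to 0.427), in 9 of 50 and 23 of 89 cells. Egr1 stood at 8087 and 7445 CPM, Junb at 9116 and 5977 CPM and Dusp1, a MAP kinase phosphatase, at 5255 and 3178 CPM (1.65, 1.54 to 1.78). Genes of the NF-kappaB feedback list leaned to UDSP-Hep, with 2 of 10 past 2-fold, 0 lower and a median log2 ratio of 0.40. They were Birc3 at 234 and 106 CPM and Traf1 at 141 and 66.0 CPM, and Tnfaip3, the deubiquitinase A20, came close at 3617 and 1897 CPM (1.91, 1.74 to 2.09). The 7 measured members of the list of STAT5 response and survival genes were all between equality and 2-fold. Among them Mcl1, a survival factor, stood at 1607 and 1032 CPM (1.56, 1.37 to 1.77), and Cish at 368 and 288 CPM (1.28, 0.980 to 1.66). Other cells leaned the same way for several of these genes: Fosb stood at 232 and 131 CPM in them and Tnfaip3 at 578 and 294 CPM.

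The called genes were then narrowed to those carried by many cells, a choice made after their values were seen. Of 78 genes higher in UDSP-Hep, 47 had over 25% of their UDSP-Hep UMIs in 1 cell, and 17 stayed past 2-fold when possible doublets were left out. Of 37 lower genes 15 had over 25% of their PBS UMIs in 1 cell, and 18 stayed. Those with no cell above 25% in the library where they were higher, and called both with and without possible doublets, were 7 higher and 11 lower genes. The limit was not set on the other library, where 1 cell held 35.7% of the PBS UMIs of Rnf19b, and 39.2% and 30.8% of the UDSP-Hep UMIs of Nr4a2 and AW011738. The higher ones were Rgs2, Fosb, Rnf19b, Nlrp3, Birc3, Bhlhe40 and Gm26532. Rgs2, a brake on G protein-coupled receptor signalling, stood at 1229 CPM in UDSP-Hep and 297 CPM in PBS (4.14, 3.38 to 5.08; 4.68 without possible doublets). Rgs2 had a UMI in 78% of UDSP-Hep and 46.1% of PBS basophils, and in 58.7% and 32.6% after thinning, while other cells stood at 450.3 and 329 CPM. Nlrp3, the inflammasome sensor, stood at 1032 and 453 CPM (2.28, 1.90 to 2.73), with a thinned median of 2 UMIs in UDSP-Hep and 0 in PBS. Bhlhe40, a transcription factor of activated lymphocytes, stood at 179 and 81.4 CPM (2.20, 1.41 to 3.45). The lower ones included Nr4a2, AW011738, Csnk1d, Ppp1r11, Chst15, Orai1, Mark2, Ccdc12, Def6 and Ckap4. Most of the named genes reached the minimum of UMIs for a call through 1 library only. That library was UDSP-Hep for Rnf19b, Birc3, Bhlhe40 and Gm26532, and PBS for the named lower genes other than Nr4a2. The counts of 7 and 11 therefore support nothing. Rgs2, Fosb, Nlrp3 and Nr4a2 reached the minimum in each library alone. Orai1, the pore of the store-operated calcium channel, stood at 58.5 and 134 CPM from 17 and 61 UMIs (0.436, 0.239 to 0.756).

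Among the listed genes with enough UMIs, the inducible HSP70 genes had the smallest ratios. HSP70 chaperones refold damaged proteins, and heat shock factor HSF1 switches the genes on under heat and other protein stress. Hspa1a and Hspa1b are near-identical neighbours on chromosome 17 whose reads can be split between them, so they were summed. They had 12 UMIs in UDSP-Hep basophils and 1314 in PBS basophils, or 41.3 and 2892 CPM, a ratio of 0.0143 (0.00736 to 0.0250). In all other cells the ratio was 0.142 (0.140 to 0.145), from 227 CPM in UDSP-Hep and 1592 CPM in PBS, so the pair was lower in UDSP-Hep there too. A few cells carried the PBS value. The highest single cell held 602 of the 1314 UMIs, and 7 of 89 PBS cells, each with at least 30 Hspa1b UMIs, held 98.9% of Hspa1b, 90.0% of Hspa1a, 83.8% of Hsp90aa1 and 97.5% of Hspb1. In UDSP-Hep 0 of 50 basophils were of this kind (exact binomial interval 0 to 7.11%; 3 counts would be 6%), against 7.87% (3.22 to 15.5%) in PBS, and the intervals overlap. The 7 PBS cells had a median of 4463 UMIs and 1068 genes, against 4985 and 1425 in the other PBS basophils. The edge of the rule changed the value. With cells of 2 rule genes added the ratio was 0.204 (0.179 to 0.232), and 1 UDSP-Hep cell with 2 rule genes held 242 UMIs. With that edge 1 of 57 UDSP-Hep and 10 of 105 PBS cells had at least 30 Hspa1b UMIs.

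The promoters of the 3 chaperone genes with the smallest ratios are shown because HSF1 is their common regulator and most of their PBS UMIs lay in the 7 cells. They are 250 bases before the start site, from RefSeq on GRCm38.p6, at chr17:34972157-34972406 (minus strand), chr17:34959239-34959488 (minus) and chr5:135887669-135887918 (plus). Capitals mark GAANNTTC or TTCNNGAA, the paired core of a heat shock element, where N is any base.
Hspa1a: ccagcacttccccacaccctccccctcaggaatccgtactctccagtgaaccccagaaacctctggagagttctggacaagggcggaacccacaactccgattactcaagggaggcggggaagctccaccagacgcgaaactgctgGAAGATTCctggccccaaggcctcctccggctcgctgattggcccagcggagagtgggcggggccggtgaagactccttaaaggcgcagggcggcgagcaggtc
Hspa1b: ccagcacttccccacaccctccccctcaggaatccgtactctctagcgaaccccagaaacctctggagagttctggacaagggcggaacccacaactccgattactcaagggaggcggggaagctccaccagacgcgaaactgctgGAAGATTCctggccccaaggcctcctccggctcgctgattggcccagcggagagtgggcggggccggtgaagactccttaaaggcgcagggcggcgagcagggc
Hspb1: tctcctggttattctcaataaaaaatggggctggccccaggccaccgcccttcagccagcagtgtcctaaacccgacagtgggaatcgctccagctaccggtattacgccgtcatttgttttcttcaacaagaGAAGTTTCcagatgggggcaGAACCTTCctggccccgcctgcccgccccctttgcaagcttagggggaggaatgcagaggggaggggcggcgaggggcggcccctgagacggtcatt
Hspa1a and Hspa1b differed at 3 of 250 positions, which shows how alike the copies are. Of the 16 chaperone genes with a window 8 held the core, against 14.5% of all genes with a window, 3932 of 27025, and 12.8% of all windows, 4218 of 32851. The list as a whole did not follow the HSP70 pair. Of 12 chaperones measured 4 were lower, Hspa1a, Hspa1b, Hsp90aa1 and Hspe1, and 0 higher, with a median log2 ratio of -0.30. Hspa1a, Hspa1b and Hspe1 reached the minimum of 50 UMIs only through PBS, with 2, 10 and 14 in UDSP-Hep. The count of 4 therefore supports nothing. Hsp90aa1, the inducible HSP90, stood at 361 CPM in UDSP-Hep and 1857 CPM in PBS (0.195, 0.157 to 0.239). Hspb1 had 2 and 40 UMIs, and 39 of the 40 lay in 1 of the 7 cells. Dnajb1, an HSP40 co-chaperone, leaned the other way at 668 and 420 CPM (1.59, 1.29 to 1.95), and the constitutive Hspa8 stood at 1215 and 1239 CPM.

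**Figure D4:**
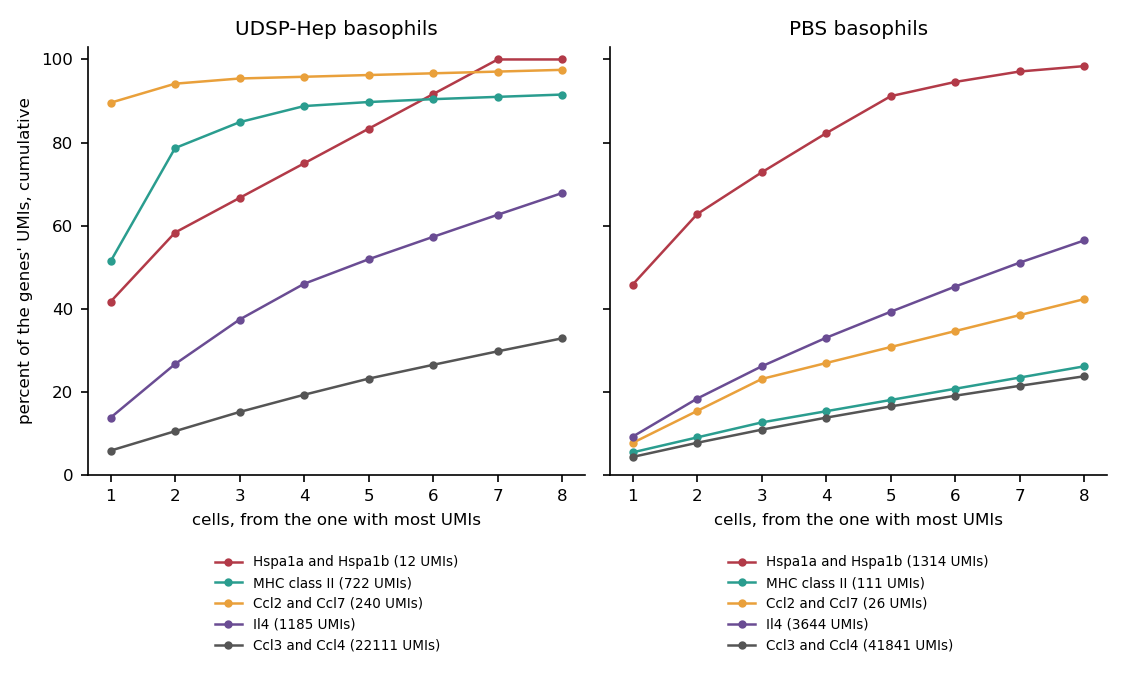
Cumulative percent of a gene group's UMIs held by the 1 to 8 basophils with the most of them, in UDSP-Hep (left) and PBS (right); each line is a gene group and its total is in the key. Hspa1a and Hspa1b in PBS and MHC class II and Ccl2 with Ccl7 in UDSP-Hep rest on few cells, whereas 8 cells hold 32.9% and 23.7% of Ccl3 with Ccl4.

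Transcripts of antigen presentation on MHC class II were higher in UDSP-Hep and rested on few cells. Of 11 members 5 had enough UMIs, Cd74, Ctss, H2-Aa, H2-Ab1 and H2-Eb1, and all 5 were past 2-fold, but each reached the minimum only through UDSP-Hep, so that count supports nothing. Of the other 6, H2-DMb1 had 29 UMIs in UDSP-Hep and 0 in PBS, and H2-DMa 24 and 4. Ciita had 7 and 1 UMIs, Cd40 5 and 0, and Cd80 0 and 1. The costimulatory ligand Cd86 ran toward PBS, at 41.3 CPM in UDSP-Hep and 66.0 CPM in PBS (0.626, 0.292 to 1.26). H2-Aa, H2-Ab1, H2-Eb1 and the invariant chain Cd74 summed to 722 UMIs in UDSP-Hep and 111 in PBS, or 2485 and 244 CPM (10.2, 8.32 to 12.5). The 2 cells with the most held 78.7% of the 722 UMIs, and without possible doublets the ratio was 2.18 (1.62 to 2.94). Cd74 alone still had enough UMIs then, at a ratio of 1.92. Other cells stood at 11663 and 12314 CPM. Outside the lists, Lgmn, Tgfbi, Arg1, Ifi30, C3, Ctsb, Psap and Thbs1, which macrophages express, were among the 12 genes with the widest gaps toward UDSP-Hep. Arg1 had 80 UMIs in UDSP-Hep and 11 in PBS, with 88.8% of the 80 in 1 cell, and stood at a ratio of 1.98 without possible doublets. The ratios of the other 7 stayed above 2 without them, from 2.24 for Psap and 3.30 for Ctsb up to 13.8 for Thbs1 and 17.8 for Ifi30, with wide intervals for most, such as 4.26 to 158 for Ifi30. Macrophage and monocyte markers moved with them, at the 1538 and 794 CPM given above and 783 and 439 CPM without possible doublets. On the PBS side Gimap6, Serpinb9 and Nkg7, lymphocyte genes, were among the 12 lowest ratios. Gimap6, with 63.6% of its PBS UMIs in 1 cell, stayed low without possible doublets, at 0.0388. The 12 also held Acod1 and Baz1a, which stood higher in basophils than in other cells. Acod1 stood at 1827 CPM in UDSP-Hep and 2977 CPM in PBS basophils, against 152 and 55.6 CPM in other cells. Baz1a stood at 678 and 1298 CPM, against 128 and 135 CPM. The NK cell protease Gzma had 9 UMIs in UDSP-Hep and 194 in PBS, 193 of which lay in 2 cells. Without possible doublets Gzma turned round, at 16.0 CPM in UDSP-Hep and 2.69 CPM in PBS, with too few UMIs for a call. The part of such cells in each of these ratios was not tested beyond leaving them out.

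Surface receptors, integrins and lineage factors had few members past 2-fold. Among 14 measured integrins and adhesion molecules 0 were past 2-fold. Itga2b, which basophils share with platelets, stood at 375 CPM in UDSP-Hep and 357 CPM in PBS, and Itga2, the alpha chain of the DX5 antigen used to stain basophils, at 200 and 295 CPM. Of 12 inhibitory and activating receptors 1 was past 2-fold, the inhibitory Fc receptor Fcgr2b at 244 and 110 CPM, which stood at 1.92 without possible doublets. The inhibitory receptor Lilrb4a and its close copy Lilr4b, between which reads can be split, stood at 2061 and 2458 CPM and at 2302 and 2311 CPM. Cd200r1, the receptor that CD200 engages, stood at 110 and 202 CPM (0.544, 0.352 to 0.821). Cd69, an early activation antigen, stood at 3648 and 2867 CPM. Of 6 measured chemoattractant receptors 1 was past 2-fold, Ccr2, the receptor of CCL2, at 385 and 158 CPM (2.43, 1.79 to 3.32), which stood at 1.18 without possible doublets. Cxcr4 stood at 2054 and 2099 CPM. Among 13 lineage factors Cebpb, Runx1 and Spi1 stood at 3624 and 3200, 681 and 885, and 196 and 227 CPM. The 1 past 2-fold was Bhlhe40, given above, and Cebpa, a factor of granulocyte progenitors, stood at 151 and 240 CPM (0.631, 0.434 to 0.904) and passed 2-fold at 0.447 without possible doublets. Glycolysis with hypoxia genes, and oxidative phosphorylation, had median log2 ratios of 0.00 and 0.01 over 21 and 23 genes. In the first list 2 genes were past 2-fold and higher, in the second 0. Those 2 were the hypoxia-inducible Bnip3, at 169 CPM in UDSP-Hep and 55.0 CPM in PBS, and Ndrg1, at 213 and 94.6 CPM. A single cell held 73.5% of the UDSP-Hep UMIs of Bnip3, and without the highest cell of each library the ratios were 0.884 for Bnip3 and 1.52 for Ndrg1. Of 20 cell cycle genes 2 had enough UMIs, both of them also made outside division: the chromatin protein gene Hmgb2 at 389 CPM in UDSP-Hep and 282 CPM in PBS (1.38, 1.06 to 1.79), and the tubulin gene Tubb5, past 2-fold at 206 and 92.4 CPM and at 1.98 without possible doublets. The proliferation markers Mki67 and Top2a had 0 and 2 UMIs in UDSP-Hep and 1 and 0 in PBS.

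Variation among basophils ran along the same line in both libraries. Over thinned cells, 46 in UDSP-Hep and 89 in PBS, the Spearman correlation of Il4 was 0.66 and 0.53 with Hdc, 0.48 and 0.61 with Ccl3, 0.67 and 0.44 with Il6, and 0.46 and 0.44 with Ccl4. It was negative with Zfp36l2, a gene for an RNA-binding protein that promotes mRNA decay (-0.51 and -0.48), with Txnip, which restrains glucose uptake (-0.37 and -0.36), and with Cpa3 (-0.33 and -0.38). Not every secreted product went with Il4, since the values were 0.26 and 0.14 for Hgf, 0.11 and 0.32 for Csf1 and 0.00 and -0.20 for Osm. Of 62 ribosomal protein genes 55 were negative with Il4 in both libraries, against 124 of all 251 genes compared. Genes detected per cell at the fixed depth were also fewer where Il4 was high, at -0.54 and -0.58. Cells with 10 or more Il4 UMIs had a median of 721.5 genes in UDSP-Hep and 649 in PBS, while those under 10 had 841 and 852. In the high cells median Ccl3 was 79.5 UMIs in UDSP-Hep and 127.5 in PBS, and in the others 48 and 49. These correlations are across cells of 1 library, which share its reagents and tumours, and at a fixed total an abundant transcript leaves fewer UMIs for the rest. They describe the libraries.

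**Figure D5:**
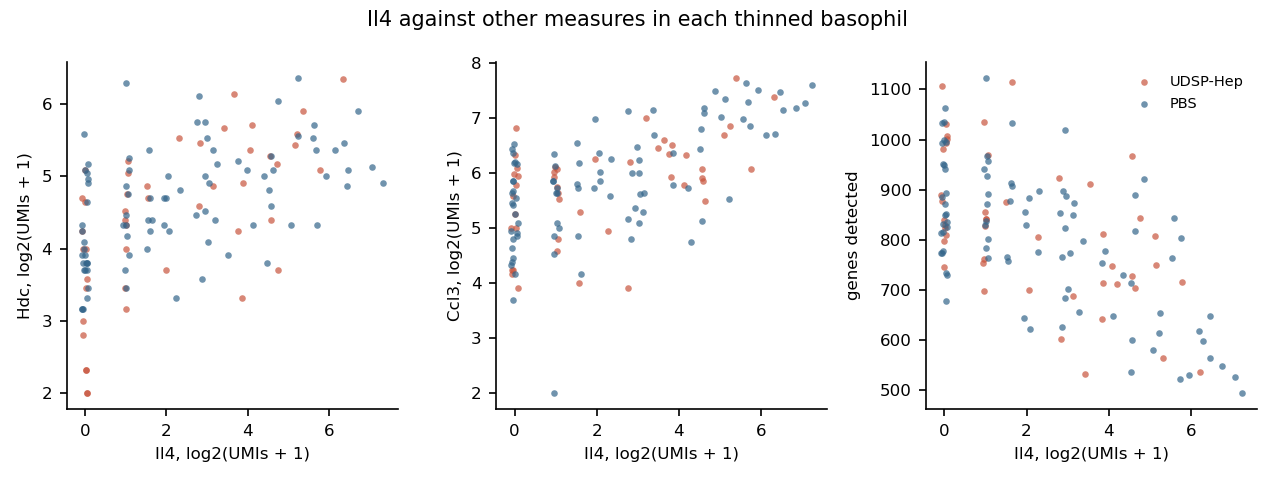
Each point is 1 basophil thinned to 2000 UMIs, with Il4 on the horizontal axis as log2(UMIs + 1) and, from left to right, Hdc and Ccl3 as log2(UMIs + 1) and the number of detected genes on the vertical axis. In both UDSP-Hep and PBS, cells with more Il4 have more Hdc and Ccl3 and fewer detected genes.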

How the data were processed

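The authors deposited raw UMI counts for 32285 genes in every barcode. The submitters' processing notes name Cell Ranger 7.0.0, mm10 and Seurat without a version. Coordinates of genes were matched by identifier in GENCODE release M21, which uses GRCm38 as mm10 does, and promoter sequences from RefSeq on GRCm38.p6.

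The limits of 200 genes, 500 UMIs and 10% mitochondrial UMIs removed 197 UDSP-Hep and 245 PBS barcodes. No doublet caller was run, and possible doublets were left out as an alternative. UMIs were summed over the basophils of each library and given as CPM. Ratios of CPM are UDSP-Hep over PBS with exact conditional binomial intervals, shares have exact binomial intervals, and ratios of shares have Katz intervals, all at 95%. A gene was called at a ratio of at least 2 or at most 0.5 when it had at least 50 UMIs over both libraries. With 1 library per group there is no p-value. The genes named are list members by role, the 12 highest and 12 lowest outside the lists by the bound of the interval nearest to equality, and the 20 highest against other cells. Per-cell values come from 1 seeded thinning to 2000 UMIs. The members, the 23 gene lists and the 10 lists of other cell types were chosen with earlier results of these data known. Aldoa and Ddit3, whose symbols belong to 2 identifiers each, and Mx1, with no row, were not measured. Among the 11 lower genes carried by many cells, 1 is not reported here. The ratio step was tested on simulated data. Python 3.11.15 with numpy 2.4.6, scipy 1.17.1 and pandas 2.3.3 was used.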

Additional observations from a re-analysis of the deposited data

How the results depend on the processing

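With 1 library per group no interval covers differences between mice or libraries, and few cells limit every value. No paired analysis was possible because each group has 1 library. The ratio of basophil shares stayed below 1 under all 7 alternatives, from 0.452 without possible doublets to 0.666 when neutrophils, eosinophils and NK cells were not counted in the total. The counts of genes past 2-fold moved with the minimum of UMIs per gene: 287 higher and 161 lower of 3728 at 20 UMIs, 29 and 12 of 956 at 100 UMIs, and 2516 and 2009 of 10688 with no minimum, against 78 and 37 of 1857. With every basophil thinned to the same depth they were 16 and 17 of 711, and without possible doublets 36 and 34 of 1360. Without the cell with the most UMIs of each gene, an alternative chosen after seeing the data, they were 60 and 58. The other 6 alternatives gave 66 to 102 higher and 29 to 50 lower. The ratio of Hspa1a and Hspa1b summed was 0.204 with cells of 2 rule genes added and 0.00299 with thinned cells, against 0.0143, and stayed below 1 under all 12 alternatives. Median-of-ratios scaling moved log2 ratios by 0.0064.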
